A study of Mus musculus with 6 samples.

Results

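The 40 genes described here encode the machinery that carries a cell from G2 through mitosis to the separation of the daughter cells. They were chosen by symbol, from knowledge of the cell cycle and with earlier results of these data known, as 40 of the 24014 genes listed in each count table, and all 40 were found. They comprise cyclins A2, B1 and B2 with Cdk1 and its activating phosphatases, the mitotic kinases, the spindle checkpoint and anaphase genes, kinetochore genes, kinesins, cytokinesis genes, spindle assembly genes, chromosome structure genes and the transcription factor gene Foxm1. RNA-seq libraries had been made from trypsin-detached epidermal cells of wild type mouse dorsal skin on postnatal day 2. The blister group (3 libraries) came from skin that had been lifted by suction of 523.4 ± 1.3 mmHg and was healing, and the control group (3 libraries) from skin labelled as control. The labels name no transgene, drug or allele in either group, and do not say how many animals gave a library or whether any library had its own animals, so the p-values reflect variation between libraries that could in part be technical.

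Entry into mitosis depends on Cdk1 bound to cyclin B, which is switched on when Cdc25 phosphatases remove inhibitory phosphates. Plk1 and the Aurora kinases then build the spindle, the checkpoint kinases hold anaphase back until every kinetochore is attached, and Cdc20 with the ubiquitin-conjugating enzyme Ube2c directs the anaphase-promoting complex to destroy securin and cyclin B. Most of these genes are transcribed late in the cycle, in a wave that depends on the MuvB complex, B-Myb, FoxM1 and NF-Y, so their mRNA is abundant only in cycling cells. In neonatal epidermis such cells lie mainly in the basal layer and in the growing hair follicles.

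Total counts per library lay between 7600567 and 15912863. Markers of several cell types differed in level between the groups. CPM stands for read counts divided by the library's effective size, its summed counts of tested genes times its TMM factor. Basal keratinocyte markers, Krt5 and Krt14 among them, summed to between 42126 and 59962 CPM in blister libraries and to between 23582 and 23987 CPM in controls; 3 of 6 were called higher (Krt14, Krt5 and Itga6), and Krt15 went the other way without overlap and was not called. Suprabasal markers, Krt1 and Krt10 among them, summed to 140638, 48664 and 77872 CPM in blister 1, 2 and 3, against 43526 to 71405 CPM in controls, and 1 of 7 was called higher and 1 lower. Hair follicle and matrix markers summed to between 219 and 1012 CPM in blister libraries and to between 2721 and 5120.4 CPM in controls, and 10 of 11 were called lower. Dermal fibroblast markers summed to between 295 and 1019 CPM in blister libraries and to between 969 and 6740 CPM in controls, with control 3 the highest; 5 of 10 were called lower and Fbln1 higher. Neutrophil markers summed to between 322 and 1051 CPM in blister libraries and to between 35.0 and 48.2 CPM in controls, and 9 of 10 were called higher. Every one of the basal, suprabasal, follicle, dermal and neutrophil markers had reads. In bulk RNA a change in the number of cells of one kind and a change in RNA per cell cannot be told apart, and the part that the basal, suprabasal, follicle and neutrophil shifts play in the values below was not tested. With the level of the dermal markers as an added term, edgeR called 0 of the 40 genes (30 at an unadjusted p under 0.05), with a median log2 fold change of 0.96. In that fit 203 of 14028 tested genes were called higher.

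The promoters of these genes are shown first. Genes of this wave are known for a cell cycle homology region, or CHR, which the MuvB complex binds, and for CCAAT boxes bound by NF-Y. A CHR was searched for here as the letters TTTGAA or TTCGAA alone, so other spellings were not counted. RefSeq promoter windows (GRCm38.p6, 250 bases before to 50 after the transcription start) were found for 33 of the 40 genes; Aurkb, Ccna2, Cdc25c, Foxm1, Kif20a, Smc4 and Tpx2 had none in the table. The stretches below run from 120 bases before the start to 30 after it, 5′ to 3′ on the gene's strand, with CHR letters and CCAAT boxes (ATTGG when on the other strand, TTCAAA for a CHR on the other strand) in capitals. They show 5 genes that rose and carry both motifs, then Ccnb1, which rose and has CCAAT boxes but neither CHR spelling searched for. Ccnb2 and Mki67, which did not pass the test, come last. Both motifs stood in 11 of 15 windows of genes that rose and in 11 of 18 of those that did not pass. Anln, which rose the most and is not shown, had a CHR and no CCAAT box in its window.
Cdc20 (chr4:118437314-118437463, minus strand): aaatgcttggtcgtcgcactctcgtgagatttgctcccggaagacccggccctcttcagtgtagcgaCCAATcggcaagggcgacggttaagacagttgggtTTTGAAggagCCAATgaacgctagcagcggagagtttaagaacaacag
Ube2c (chr2:164769809-164769958, plus strand): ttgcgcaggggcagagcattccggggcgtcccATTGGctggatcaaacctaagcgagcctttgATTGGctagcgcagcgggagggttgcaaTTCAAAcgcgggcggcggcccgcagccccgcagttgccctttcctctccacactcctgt
Prc1 (chr7:80294331-80294480, plus strand): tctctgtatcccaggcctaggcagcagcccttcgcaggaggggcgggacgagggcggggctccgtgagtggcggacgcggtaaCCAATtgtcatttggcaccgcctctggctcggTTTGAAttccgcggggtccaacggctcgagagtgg
Kif11 (chr19:37376262-37376411, plus strand): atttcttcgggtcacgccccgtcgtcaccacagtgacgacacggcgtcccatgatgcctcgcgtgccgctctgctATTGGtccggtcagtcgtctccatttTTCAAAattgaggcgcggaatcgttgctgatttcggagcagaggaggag
Hmmr (chr11:40733408-40733557, minus strand): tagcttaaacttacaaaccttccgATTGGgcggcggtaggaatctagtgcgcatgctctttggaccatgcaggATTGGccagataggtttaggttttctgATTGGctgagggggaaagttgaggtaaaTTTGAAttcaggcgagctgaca
Ccnb1 (chr13:100786457-100786606, minus strand): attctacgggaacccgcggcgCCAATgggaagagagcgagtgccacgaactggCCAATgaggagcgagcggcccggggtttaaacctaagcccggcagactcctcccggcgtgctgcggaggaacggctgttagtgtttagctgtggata
Ccnb2 (chr9:70421525-70421674, minus strand): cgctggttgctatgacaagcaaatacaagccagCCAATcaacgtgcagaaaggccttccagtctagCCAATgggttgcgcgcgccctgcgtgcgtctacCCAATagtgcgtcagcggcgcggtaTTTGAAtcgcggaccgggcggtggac
Mki67 (chr7:135716350-135716499, minus strand): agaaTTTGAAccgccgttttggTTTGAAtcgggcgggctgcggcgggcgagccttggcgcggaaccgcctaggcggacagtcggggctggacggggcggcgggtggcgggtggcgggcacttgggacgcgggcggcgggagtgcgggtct

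In Cdc20 the CHR starts 18 bases before the transcription start, between CCAAT boxes at 53 and 8 bases before it. Prc1 has its CHR 5 bases before the start. Hmmr has 3 CCAAT boxes in the stretch shown and its CHR begins at base 9 after the start. Both CHRs of Mki67 lie farther upstream, at 116 and 98 bases before the start. Its CCAAT boxes, at 188, 166 and 141 bases before the start, lie outside the stretch shown. Across the 33 windows, searched on both strands, 26 (78.8%) held a CHR and 24 (72.7%) held it no farther than 50 bases from the start. Of the windows of 10436 tested genes, 13.6% held a CHR and 3.41% held one that near. At least 1 CCAAT box was found in 24 of the 33 windows (72.7%) and in 38.3% of those of tested genes, and at least 2 in 15 (45.5%) and 14.3%. Both motifs stood in 22 windows (66.7%), against 5.82% for tested genes. A CHR was found in 12 of 15 windows (80.0%) of genes that rose and in 14 of 18 (77.8%) of those that did not pass the test. Within 50 bases of the start these counts were 12 (80.0%) and 12 (66.7%), and at least 2 CCAAT boxes were found in 9 (60.0%) and 6 (33.3%); no test of these differences was made. These are matches of letters, not measured binding.

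**Figure D1:**
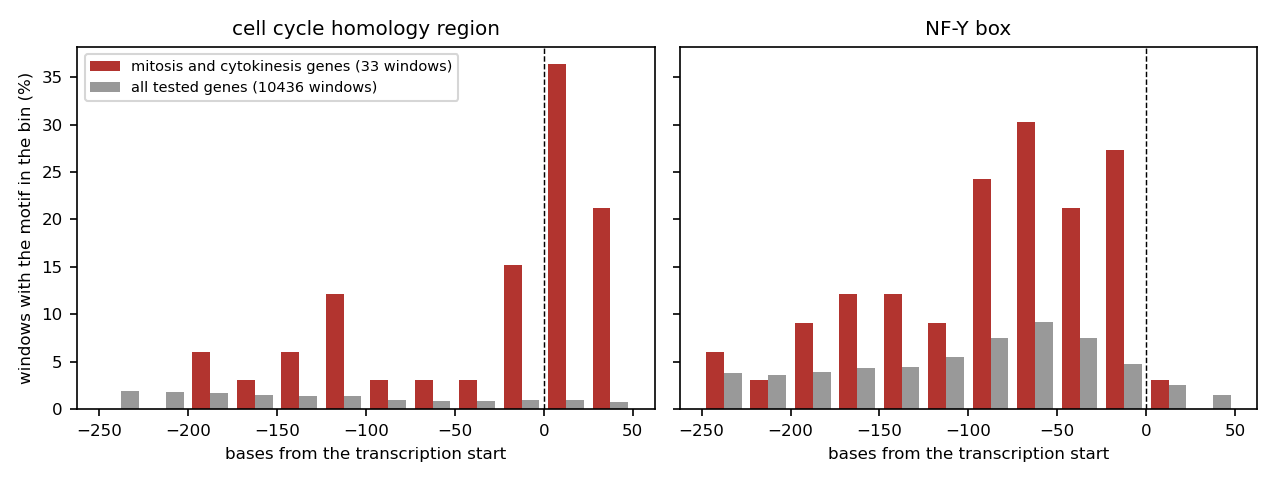
Share of promoter windows (y axis, percent) in which a CHR (left) or a CCAAT box (right) starts in each bin of 25 bases (x axis, bases from the transcription start), for 33 mitosis and cytokinesis genes (red) and 10436 tested genes (grey). The CHR peaks just after the start in the mitosis genes, where 36.4% of windows have one in the bin that begins at the start.

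The comparison of blister with control epidermis asks how skin that is healing a blister differs, here in the mRNA of cell division. Every one of the 40 genes passed the filter on low counts and all 40 had a positive log2 fold change (blister over control), from 0.05 for Foxm1 to 1.23 for Anln, with a median of 0.72 against 0.00 for all tested genes. In edgeR's quasi-likelihood test 16 of the 40 rose at an adjusted p under 0.05, where 9.74% of the 14028 genes tested rose and 21.3% were called in either direction. None was called lower (0 also at an unadjusted p under 0.05, in DESeq2 and in limma-voom), where 11.6% of tested genes were. At an unadjusted p under 0.05, 32 of the 40 were higher, against 19.0% of tested genes. For 23 of the 40 the lowest blister library lay above the highest control, against 21.4% of tested genes. The count of calls depended on single libraries. Without control 1 edgeR called 0 of the 40 (20 at an unadjusted p under 0.05). Over all genes that fit called 785, in place of 2993, and 306 of 14230 tested genes rose. Without control 3 edgeR called 1 of the 40 (541 of 14121 tested genes rose) and without blister 2 it called 4 (1032 of 14264). Without control 2 it called 9 (476 of 14205) and without blister 3 it called 10 (1998 of 14350). The median of the 40 lay between 0.53 and 0.84 in these fits. Scaled by library size alone, 2 of the 40 were called (544 of the 14028 tested genes rose), 38 were positive and 3 did not overlap. The share of all tested genes without overlap was not counted with that scaling, so the 3 cannot be set against one. That scaling moved the median of all genes to -0.25, and the 40 lay 0.73 above it, against 0.71 with TMM.

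The 40 genes moved as a block between libraries. Summed over the 40, the level was 2781, 4661 and 4110.1 CPM in blister 1, 2 and 3, and 2040.04, 2903 and 2459 CPM in the controls in the same order. Blister 1 thus lay between the controls on this sum and the other blister libraries lay above all controls. Blister 2 was the highest of the 6 libraries for 30 genes and blister 3 for 9. Control 2 was the highest control for 37 genes and control 1 the lowest for 38. The log2 levels of a gene over the 6 libraries correlated with those of the other 39 members at a median Pearson's r of 0.80 or more for 38 of the 40, a description over 6 points that share the group difference and the library scaling. The exceptions were Pttg1 (median r = 0.39) and Foxm1 (median r = 0.59).

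**Figure D2:**
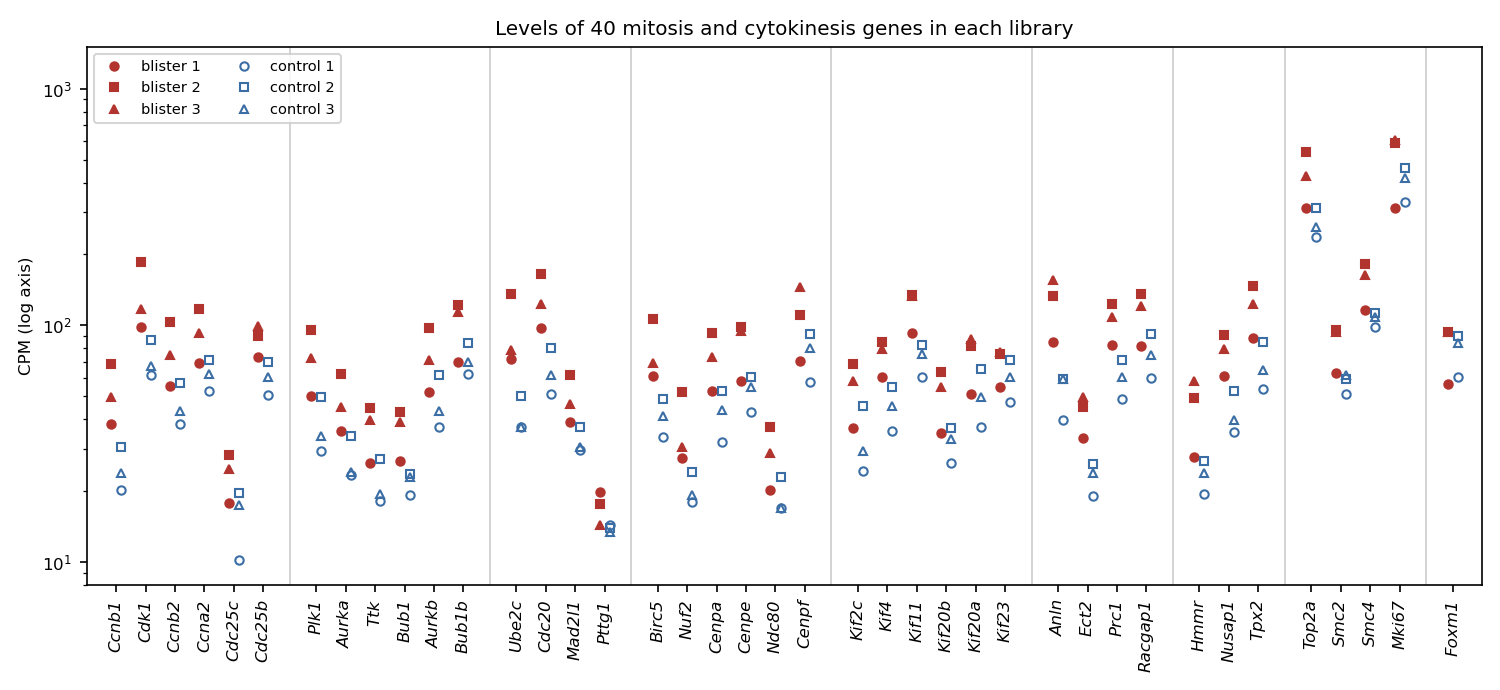
Level of each of the 40 genes (y axis, CPM, log axis) in 3 blister libraries (filled red) and 3 control libraries (open blue), with genes ordered by role along the x axis and thin lines between roles. In most genes control 1 is lowest, and blister 2 and 3 stand above all 3 controls in all 40.

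The roles below hold 1 to 6 genes each, so counts of calls within a role are small, and 9.74% of all tested genes were called higher. Among the genes of mitotic entry, cyclin B1 and its kinase rose. Ccnb1, the cyclin that brings Cdk1 into mitosis, was at 38.4, 68.7 and 49.9 CPM in blister 1, 2 and 3, against 20.2, 30.5 and 23.8 CPM in control 1, 2 and 3. Every blister library was above every control, and the log2 fold change was 1.07 with an SE of 0.24 (edgeR adjusted p = 0.0229). Cdk1, the kinase itself, was at 98.1, 185 and 117 CPM in blister libraries, against 61.3, 86.5 and 67.5 CPM in controls. Its groups did not overlap, with blister 2 far above the rest (log2 fold change ± SE 0.89 ± 0.25, a form kept below; edgeR adjusted p = 0.0424). Cdc25b, the phosphatase that starts Cdk1 activation, was at 73.6, 90.03 and 99.1 CPM in blister libraries, against 50.9, 69.8 and 60.5 CPM in controls. Although these groups did not overlap either, Cdc25b stopped short of the threshold (0.54 ± 0.16, edgeR adjusted p = 0.0528). Ccna2, which acts from S phase into G2, Ccnb2, a second B-type cyclin, and Cdc25c, another Cdk1 phosphatase, had log2 fold changes of 0.58, 0.75 and 0.58 with edgeR adjusted p of 0.0787, 0.0656 and 0.164, and in each of them blister 1 fell within the control range.

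Of the 6 mitotic kinase genes, 3 rose. Plk1, needed for centrosome maturation and much of mitosis after it, was at 50.2, 95.5 and 72.3 CPM in blister libraries, against 29.4, 49.7 and 33.8 CPM in controls. Blister 1 exceeded control 2 by a small margin (0.95 ± 0.27, edgeR adjusted p = 0.0468). Aurka, the centrosomal Aurora kinase gene, stood at 35.7, 62.2 and 45.2 CPM in blister libraries, against 23.2, 33.9 and 24.0 CPM in controls. It rose by 0.81 ± 0.24 (edgeR adjusted p = 0.0468), a call that no fit with 1 library left out retained (edgeR adjusted p up to 0.146, without control 1). Bub1, a checkpoint kinase of the kinetochore, was at 26.6, 42.9 and 39.1 CPM in blister libraries, against 19.2, 23.6 and 22.8 CPM in controls (0.72 ± 0.20, edgeR adjusted p = 0.0394). Here too the groups were apart, with blister 1 nearest to the controls. The remaining kinases were not called. Bub1b, whose product restrains Cdc20, was at 69.9, 122 and 113 CPM in blister libraries, against 62.1, 83.7 and 70.2 CPM in controls, so that blister 1 was below control 2 and control 3 (0.50 ± 0.22, edgeR adjusted p = 0.138). Ttk, which starts the checkpoint signal, and Aurkb, the kinase of the chromosomal passenger complex, had log2 fold changes of 0.77 and 0.63 (edgeR adjusted p = 0.0583 and 0.123).

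Genes of anaphase held 2 of the 4 largest log2 fold changes. Ube2c was at 71.7, 136 and 78.5 CPM in blister libraries, against 37.1, 50.3 and 37.1 CPM in controls. Blister 2 stood well above the other blister libraries, and each of these was above all controls (1.20 ± 0.26, edgeR adjusted p = 0.0216). Cdc20 was at 97.0, 164 and 123 CPM in blister libraries, against 51.0, 80.3 and 61.6 CPM in controls, again without overlap (0.99 ± 0.23, edgeR adjusted p = 0.0258). The checkpoint effector gene Mad2l1, whose product holds Cdc20 inactive, did not overlap between groups either and missed the threshold (0.59 ± 0.19, edgeR adjusted p = 0.0611). Pttg1, the gene of securin, which the anaphase-promoting complex destroys, was the 1 gene with its highest level in blister 1, with 19.6, 17.6 and 14.3 CPM in blister libraries, against 14.3, 13.9 and 13.3 CPM in controls. Its groups touched rather than overlapped, with blister 3 just above control 1 (0.31 ± 0.17, edgeR adjusted p = 0.213). It also held the lowest count of any member in a library, 128 reads.

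Of the 6 kinetochore and centromere genes 1 was called, and 3 overlapped between groups. Birc5, which encodes survivin of the chromosomal passenger complex, was at 60.8, 107 and 69.4 CPM in blister libraries, against 33.5, 48.5 and 41.3 CPM in controls. All blister libraries exceeded the controls (0.94 ± 0.23, edgeR adjusted p = 0.0311). The Ndc80 complex gene Nuf2 (0.84 ± 0.26, edgeR adjusted p = 0.0541) and Cenpa, the centromeric histone H3 variant (0.76 ± 0.24, edgeR adjusted p = 0.0621), did not overlap between groups and missed the threshold. Cenpf, a kinetochore protein of late G2, was at 70.6, 111 and 145 CPM in blister libraries, against 57.4, 92.0 and 79.9 CPM in controls. It was highest in blister 3, and blister 1 lay below control 2 and control 3 (0.51 ± 0.28, edgeR adjusted p = 0.210). Cenpe, a kinetochore motor, and Ndc80, which binds microtubules, had log2 fold changes of 0.67 and 0.60 (edgeR adjusted p = 0.0690 and 0.112).

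Kinesin genes gave 2 calls of 6. Kif11, the motor that pushes the spindle poles apart, was at 92.5, 134 and 132 CPM in blister libraries, against 60.5, 82.5 and 75.8 CPM in controls. Its groups did not overlap, and blister 2 and 3 were nearly equal (0.71 ± 0.18, edgeR adjusted p = 0.0337). Kif4, a chromosome-bound kinesin, was at 60.1, 84.7 and 79.5 CPM in blister libraries, against 35.7, 55.03 and 45.5 CPM in controls (0.72 ± 0.19, edgeR adjusted p = 0.0389). The microtubule depolymerase gene Kif2c had as large a log2 fold change with a wider error (0.72 ± 0.29, edgeR adjusted p = 0.111). Kif20b and Kif20a, motors of the midzone and midbody, were at 0.67 and 0.53 on the same scale (edgeR adjusted p = 0.0758 and 0.173). Kif23, the motor subunit of centralspindlin, showed little difference, 0.21 ± 0.19 (edgeR adjusted p = 0.448), and with library size alone its value turned to -0.027. Values of these 4 genes in blister 1 fell inside the control range.

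Of the cytokinesis genes 3 of 4 rose, and of the spindle assembly genes 3 of 3, where 9.74% of all tested genes did. Anln, the gene of anillin, which organises the contractile ring, was at 85.2, 133 and 155 CPM in blister libraries, against 39.7, 59.4 and 59.4 CPM in controls. Even its lowest blister library was well above its highest control (1.23 ± 0.25, edgeR adjusted p = 0.0179), and of the fits without 1 library the call was absent from the one without control 1 (edgeR adjusted p = 0.0603). Ect2, the exchange factor that activates RhoA at the division plane, was at 33.2, 45.2 and 49.5 CPM in blister libraries, against 18.9, 25.9 and 23.8 CPM in controls (0.89 ± 0.19, edgeR adjusted p = 0.0199). Prc1, which bundles the microtubules of the midzone, was at 82.6, 123 and 108 CPM in blister libraries, against 48.6, 71.2 and 60.5 CPM in controls (0.80 ± 0.19, edgeR adjusted p = 0.0279). In both genes all blister libraries were above all controls. Racgap1, the partner of Kif23 in centralspindlin, was at 81.6, 135 and 121 CPM in blister libraries, against 59.8, 91.9 and 75.0 CPM in controls, with blister 1 below control 2 (0.57 ± 0.22, edgeR adjusted p = 0.102).

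Tpx2, which activates Aurora A on spindle microtubules, was at 88.1, 147 and 122 CPM in blister libraries, against 53.9, 84.5 and 64.9 CPM in controls (0.81 ± 0.23, edgeR adjusted p = 0.0426). Nusap1, a microtubule-bundling protein gene, was at 61.2, 90.6 and 79.0 CPM in blister libraries, against 35.4, 52.8 and 39.9 CPM in controls (0.85 ± 0.20, edgeR adjusted p = 0.0253). Hmmr, whose product binds spindle poles, was at 27.7, 49.4 and 58.2 CPM in blister libraries, against 19.3, 26.7 and 23.7 CPM in controls (0.96 ± 0.27, edgeR adjusted p = 0.0437). None of the 3 genes overlapped between groups, but in Hmmr blister 1 cleared control 2 narrowly, at 0.515 of the mean of blister 2 and 3. Of the 6 fits without 1 library, the calls of Tpx2 and Hmmr held in 1 each and that of Nusap1 in 3.

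The chromosome structure genes and Foxm1 gave 0 calls of 5 in edgeR, 3 of them past an unadjusted p of 0.05. DESeq2 called Top2a, Smc2 and Smc4, where it called 1956 of 14028 tested genes higher. Top2a, the topoisomerase that untangles sister chromatids, was at 312, 539 and 427 CPM in blister libraries, against 235, 313 and 259 CPM in controls. Blister 1 was level with control 2 (0.66 ± 0.22, edgeR adjusted p = 0.0655). Smc2 and Smc4, the core of condensin, were at 0.55 and 0.53 with groups that did not overlap (edgeR adjusted p = 0.0640 and 0.0651). Mki67, which coats mitotic chromosomes and is the usual marker of cycling cells, was at 313, 586 and 609 CPM in blister libraries, against 332, 463 and 418 CPM in controls. Blister 1 was thus the lowest of the 6 libraries while blister 2 and 3 were the highest (0.31 ± 0.26, edgeR adjusted p = 0.407). Foxm1, the transcription factor gene of the G2/M wave, behaved in the same way, at 56.4, 93.2 and 93.2 CPM in blister libraries, against 60.5, 90.1 and 83.9 CPM in controls (0.05 ± 0.23, edgeR adjusted p = 0.894). The sign of Foxm1 turned in 5 of the 18 alternative fits.

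**Figure D3:**
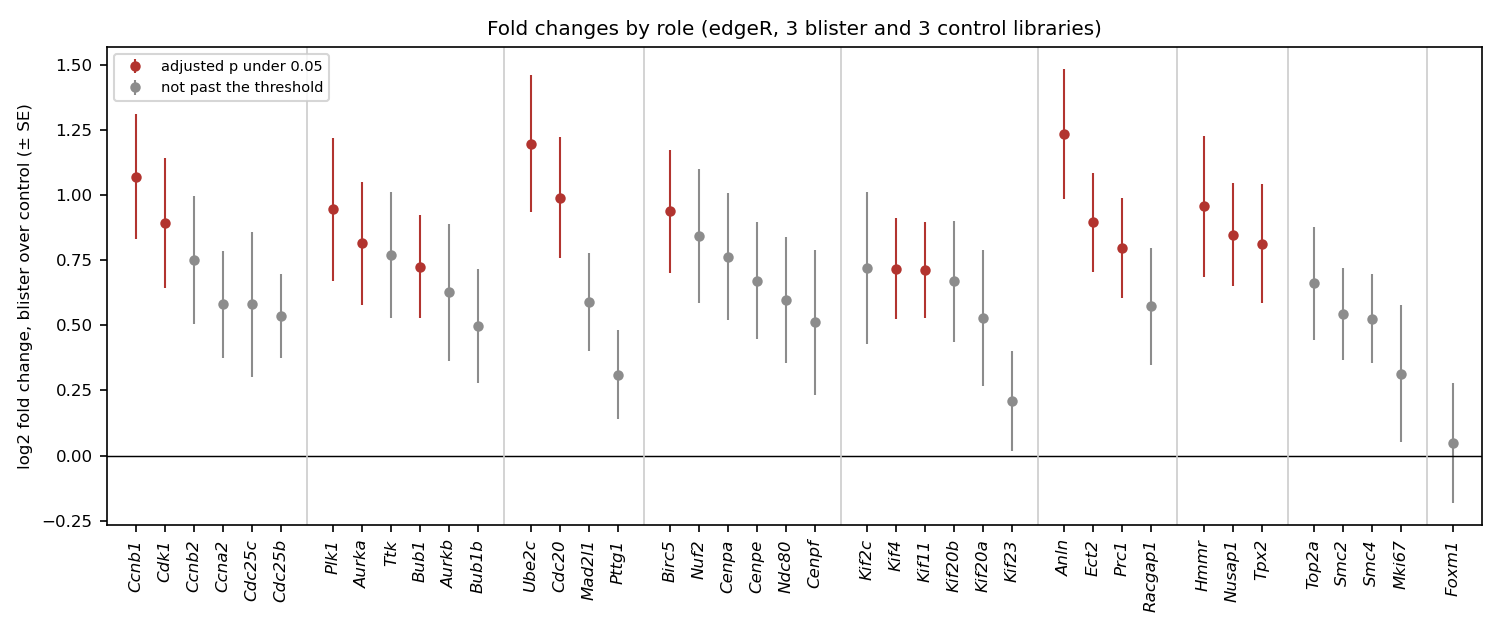
Log2 fold change of each of the 40 genes, blister over control (y axis), with its standard error as bars, from edgeR on 3 blister and 3 control libraries, ordered by role along the x axis. Red points passed an adjusted p of 0.05 (16 genes) and grey points did not; all 40 lie above 0, from 0.05 for Foxm1 to 1.23 for Anln.

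Blister 1 stood below the other blister libraries in these genes. It also had the highest summed suprabasal markers of the 6 libraries (140638 CPM, against 48664 CPM in blister 2 and 77872 CPM in blister 3), whose part in its lower values was not tested. Its values were below those of both blister 2 and blister 3 for 39 of the 40 genes, the exception being Pttg1. For those 39 its level was between 0.515 and 0.778 of the mean of blister 2 and 3. Control 1 was likewise the lowest control for 38 of the 40 genes. Set against the control range, blister 1 was above it for 23 genes, within it for 15 and below it for 2, Mki67 and Foxm1, whereas blister 2 and blister 3 were above it for all 40. Over all tested genes the 3 libraries were above the control range for 39.7%, 39.4% and 35.0%. The median log2 ratio to the control mean was 0.27, 0.98 and 0.76 in blister 1, 2 and 3 over the 40 genes. Without blister 1 the test called 22 of the 40 and 1028 genes in all, with 534 of 14286 tested genes higher. Without blister 2 it called 4 of the 40, Ccnb1, Ube2c, Anln and Ect2, with a median of 0.53. In that fit 1032 of 14264 tested genes were higher. Libraries also differed in Xist, the RNA of the inactive X chromosome, with 838, 879 and 8.49 CPM in blister libraries, against 1409, 16.9 and 0.512 CPM in controls. When edgeR's fit carried Xist's level as an added term, it called 10 of the 40, with a median of 0.79, and 702 of 14028 tested genes higher. Of the 16 calls 7 were lost (Cdk1, Plk1, Aurka, Bub1, Ube2c, Birc5 and Tpx2).

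**Figure D4:**
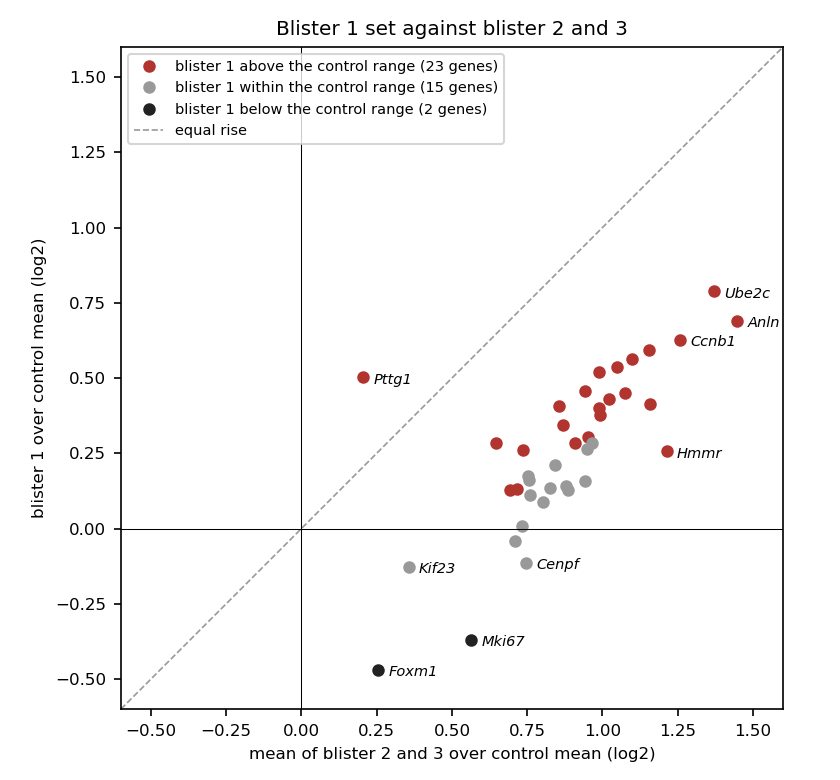
Each point is 1 of the 40 genes, with the mean of blister 2 and 3 over the control mean on the x axis and blister 1 over the control mean on the y axis (both log2); the dashed line marks equal values. All genes but Pttg1 lie below the line, and colours show whether blister 1 was above (23 genes), within (15) or below (2) the range of the 3 controls.

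Other genes of cell division, on lists written beside the 40, were read from the same fit. Of 118 tested genes on these lists 13 rose and 1 fell in edgeR, 99 were positive, and the median log2 fold change was 0.36. The share that rose, 11.0%, was near the 9.74% of all tested genes, and over the 6 single lists, of 10 to 37 genes each, it ran between 6.67% and 16.2%. Among other kinetochore, centromere and passenger genes 6 of 37 rose, including the checkpoint gene Mad1l1 (71.4 CPM in blister libraries and 50.1 CPM in controls on average), the kinetochore gene Zwint (63.3 and 41.0 CPM), the passenger gene Cdca8 (92.6 and 50.3 CPM) and the checkpoint gene Bub3 (129 and 89.7 CPM). Among other kinesin, spindle and midbody genes 2 of 25 rose, the midbody gene Cep55 (26.8 and 14.8 CPM) and the spindle gene Tacc3 (119.9 and 70.1 CPM), and 1 fell, Tacc1 (18.2 and 33.6 CPM). Pbk, a mitotic kinase gene, and Mastl, whose kinase keeps Cdk1 substrates phosphorylated, were the 2 that rose of 18 entry kinases, partners and inhibitors, at 49.3 and 20.7 CPM in blister libraries against 28.5 and 11.3 CPM in controls. The list of anaphase-promoting complex genes had 1 call of 15, Cdc27, and a median of 0.09. The condensin and cohesin list had 1 of 13, Cdca5, and a median of 0.17. The MuvB, DREAM and B-Myb list had 1 of 10, Lin54, a DNA-binding subunit of MuvB (25.6 and 16.8 CPM), and a median of 0.13.

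Genes of DNA replication and the G1/S transition, which mark an earlier part of the cycle, lay on both sides of 0. Of 48 tested, 3 rose and 2 fell, 26 were positive, and the median log2 fold change was 0.03. The smallest p-values belonged to Ccnd1, the cyclin of G1, which fell to 217 CPM in blister libraries, against 394 CPM in controls (edgeR adjusted p = 0.0216), and to Dbf4, the partner of the replication kinase Cdc7, which rose to 59.4 CPM in blister libraries, against 35.5 CPM in controls. The median log2 ratio of this list to the control mean was -0.15, 0.24 and -0.05 in blister 1, 2 and 3, against 0.27, 0.98 and 0.76 for the 40 mitosis genes in the same libraries. No test was made between these lists. Of the 40 mitosis genes 16 (40 of 40 positive) and of the 48 replication genes 3 (26 of 48 positive) were called higher, where 9.74% of all tested genes were.

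**Figure D5:**
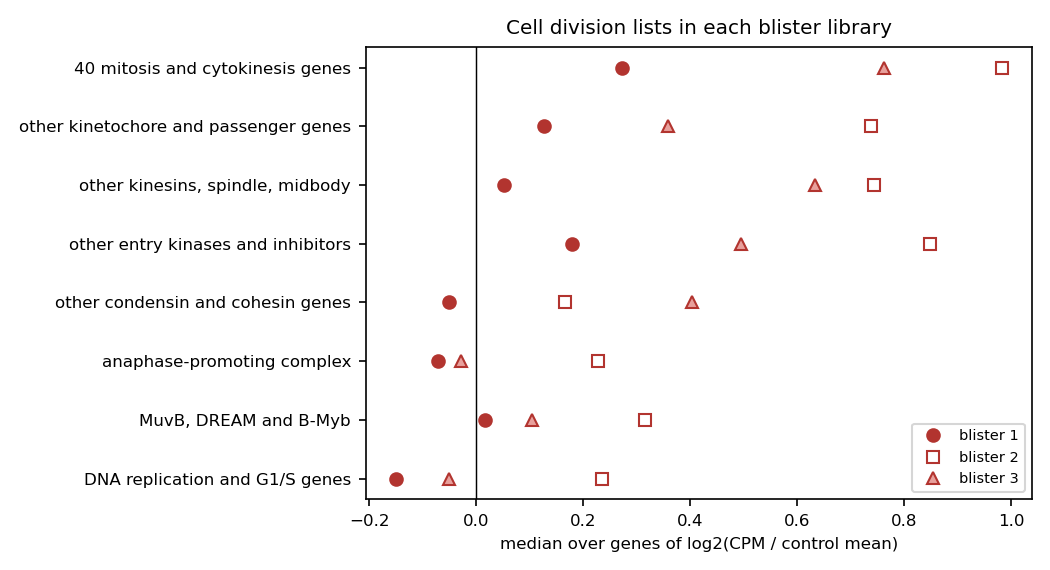
Median over the genes of a list of log2(CPM over control mean) (x axis) in blister 1 (filled circle), blister 2 (open square) and blister 3 (triangle), for the 40 mitosis and cytokinesis genes and 7 other lists of cell division genes. The 40 genes lie at 0.27, 0.98 and 0.76, and the replication list at -0.15, 0.24 and -0.05.

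Some values carry the limits of counting by gene. In the GENCODE M21 annotation, exons of some of the 40 genes overlap those of another gene. Among them are Ube2c with Tnnc2, Prc1 with Rccd1, Kif4 with Pdzd11 and Nusap1 with Oip5 on the opposite strand. Whether the counting used strand is not stated in the sources at hand. Annotated pseudogene copies exist for Ccnb1, Ccnb2 and Kif4, with which reads may be shared. Across the 40 genes, which share the 6 libraries, transcript length correlated with the log2 fold change at a Pearson's r of -0.26 and a Spearman's rho of -0.28, and across 12937 tested genes at -0.20 and -0.24. By library, the log2 ratio to the control mean gave r of -0.41, -0.35 and 0.13 and rho of -0.35, -0.39 and 0.07 for blister 1, 2 and 3 over the 40 genes, so the sign differed between libraries; over the 12937 genes r was -0.23, -0.29 and -0.07.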

How the data were processed

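The authors deposited raw read counts per gene, in a table of 24014 gene symbols for each library, for 3 blister and 3 control libraries. The alignment used HISAT2 2.0.0 and the counting featureCounts, on builds given as NCBIM37 and mm9, per the submitters' processing notes; the sources used here give no featureCounts version or strand setting. Per the labels' protocols, epidermis was freed with 0.25% trypsin, filtered at 70 µm and sequenced as oligo-dT selected TruSeq libraries. The 40 genes and all other lists were chosen with earlier results of these data known.

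Genes were tested across the whole table with edgeR 4.0.16 in R 4.3.3 (quasi-likelihood F-test, not robust, TMM scaling, group as the single term). The function filterByExpr (minimum count 10, minimum total 15) left 14028 genes, and the Benjamini-Hochberg adjustment of the two-sided p-values ran over these, with a threshold of 0.05. CPM are counts over the product of a library's summed counts of tested genes and its TMM factor. Intervals given with ± beside log2 fold changes are SE. The procedure was tested on simulated data. No libraries were copies of each other. Values in all 6 libraries are given for called members, for the member with the highest mean CPM in each role, and for Mki67, Top2a, Ccnb1, Plk1, Foxm1 and Cdc25b. From the other lists the called genes are named, at most 4 per list and 2 for replication. Pttg1 was added after its values were seen. Alternatives were other scalings, filters, DESeq2 1.42.0, limma-voom (limma 3.58.1), robust edgeR, a replicate block, covariates, leaving out the 50 most abundant genes and leaving out each library. Each member had at least 128 counts in each library. Promoter windows are RefSeq's on GRCm38.p6, another build than the counts, and were used for sequence alone. Plots were drawn with matplotlib 3.10.9.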

Additional observations from a re-analysis of the deposited data

How the results depend on the processing

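Of the 40 genes, at least 38 had a positive log2 fold change in each of the 18 alternative fits, and the median of the 40 lay between 0.48 (library size alone) and 0.96 (dermal marker level as a covariate), with 0.53 to 0.89 when 1 library was left out. The count of calls was less stable than the direction. In place of 16 higher, upper-quartile scaling gave 9, library size alone 2, the Xist covariate 10, the dermal covariate 0 (30 at an unadjusted p under 0.05) and DESeq2 28. In the same order 988, 544, 702, 203 and 1956 of 14028 tested genes were called higher, in place of 1367. Fits that left out 1 library gave 0 to 22 of the 40, where 306 of 14230 to 1998 of 14350 tested genes were called higher. Median-of-ratios scaling, robust edgeR and leaving out the 50 most abundant genes gave 16 each, no filter 17, the stricter filter 14 and limma-voom 15. Counts of tested genes called higher in these fits ran from 1106 of 11315 (stricter filter) to 1378 of 14028 (median-of-ratios scaling). Over all genes, in place of 2993 calls, the dermal covariate gave 311, the Xist covariate 1745 and fits without 1 library 785 to 4061. Calls upwards were 45.7% of all calls with TMM, 34.4% with upper-quartile scaling and 16.1% with library size alone. In place of 23 genes whose groups did not overlap, library size alone gave 3, with no matching count made over all tested genes.

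Signs turned for Kif23 with library size alone (-0.027) and for Foxm1 with upper-quartile scaling (-0.011), library size alone (-0.18), without blister 2 (-0.05), without blister 3 (-0.06) and without control 1 (-0.10), where fits without 1 library ran from -0.10 to 0.27; neither gene was called in any of these fits. Fits with library size alone differ from the main fit in scaling, and the covariate fits in an added term. Those without a library differ in how many and in which libraries enter. What moved the calls was not tested. With the replicate number as a block 33 of the 40 were called, and 1365 of 14028 tested genes rose. Over all tested genes, libraries sharing a number did not deviate together (correlations of 0.21, -0.25 and 0.07), and not every library correlated best with its own number. Within the 40 genes the order was alike in both groups. Blister 1 was the lowest blister library for 39 genes and control 1 the lowest control for 38. Blister 2 was the highest blister library for 30 and control 2 the highest control for 37. The labels do not say that equal numbers mark pairs, so the numbers are not taken as pairs.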
